A study of Mus musculus with 16 samples.

Results

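The microRNA (miRNA) miR-31 was followed through its 2 strands, mmu-miR-31 and mmu-miR-31*, which are 2 of the 611 mouse miRNAs on the array and were chosen by name. Carotid arteries came from female ApoE-/- mice on a C57BL/6 background. Without this lipid-carrying protein mice develop atherosclerosis readily, and all were on a western-type diet. There were 3 uninjured arteries. Wire-injured arteries, in which a wire is passed through the vessel, were collected 1, 7, 14 and 28 days later (n = 3, 3, 3 and 4). Mice were 6 to 8 weeks old per the labels, except in the day 1 group, whose label gives 8 weeks. All 16 animals, controls included, carried the same gene deletion, and total RNA of each artery was put on 1 Agilent array with 1 dye (Cy3). The labels do not name the cell types within the vessel wall, so a lower level in a whole artery may come from fewer cells of a type or from less of the miRNA per cell, which cannot be told apart here.

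A miRNA is cut from a hairpin RNA, and 1 or both strands of its stem are loaded onto an Argonaute protein, where bases 2 to 8 of the strand (the seed) pair with target messenger RNAs and lower their output. The 5p strand of miR-31 is the more abundant one in most tissues, and the array's star name marks the other strand. In cultured rat vascular smooth muscle miR-31 is known to promote proliferation through repression of Lats2, a kinase of the Hippo growth-control pathway, and in human endothelial cells it is known to repress E-selectin, a receptor for leukocytes. Wire injury removes the endothelium and is followed by growth of smooth muscle into a neointima, the inner layer that narrows the vessel.

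Both strands are shown because they are the measured molecules and differ in what they can pair with. Capitals mark the seed, and the sequences are RefSeq's for build GRCm38.p6, minus strand, at chr4:88910614-88910635 for mmu-miR-31 (listed there as mmu-miR-31-5p) and chr4:88910577-88910599 for mmu-miR-31* (mmu-miR-31-3p).
mmu-miR-31: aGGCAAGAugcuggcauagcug
mmu-miR-31*: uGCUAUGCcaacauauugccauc
Both were matched by name, and 0 of the other mature mouse miRNAs among the 1738 in that table carry either seed. The longest run of bases that the 22-base miR-31 shares with another miRNA of the table is 9 (miR-193a-5p and miR-1941-5p), and for the 23-base miR-31* it is 8 (miR-6958-3p). The hairpin, 106 bases at chr4:88910557-88910662 on the minus strand, is given with both strands in capitals to show that they come from opposite arms of 1 stem.
Mir31 hairpin: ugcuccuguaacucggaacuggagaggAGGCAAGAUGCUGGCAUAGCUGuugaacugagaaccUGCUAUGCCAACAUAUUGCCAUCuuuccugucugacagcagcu
In the RefSeq annotation of that assembly the Mir31 gene lies within the long noncoding RNA gene Gm49890. Whether it falls in an exon or an intron of Gm49890 was not analysed here. The nearest protein-coding genes are Ifne, an epithelial interferon, on one side and Mtap, an enzyme of methionine salvage, on the other.

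The files place the arrays on 2 slides. Slide 1 held every day 1 and day 7 array, slide 2 held every uninjured and day 14 array, and day 28 was divided, with replicates 1 and 2 on slide 1 and the rest on slide 2. Brightness differed between arrays. The 75th percentile of the probes detected on all arrays, by which every array was divided, was 484 to 1432 intensity units for injured arteries and 401 to 624.1 for uninjured ones. Each level below is log2 of signal divided by that percentile, for the brighter probe of the miRNA. Smooth muscle miR-143 and miR-145 and the endothelial miR-126-3p were well above background on all 16 arrays. The series' design text gives 3 to 4 animals per group, which is the number of arrays in each.

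Both strands were measured on every array. The array carries 2 probes for each strand, with 10 spots per probe. The brighter probe of miR-31 was well above background on 16 of 16 arrays, with 123 to 709 intensity units, and its spots varied by a median of 5.43% (coefficient of variation) within an array. The dimmer probe of miR-31 was also well above background on 16 arrays, at 33.1 to 187 units. For miR-31* the brighter probe passed on 16 arrays at 19.1 to 67.7 units, with a median spot variation of 9.23%, and the dimmer probe passed on 6. Levels of miR-31* therefore rest on 1 probe.

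Before any scaling, miR-31 gave 260.4, 273 and 225 intensity units in the uninjured arteries. It gave 177, 136 and 123 units at day 1, 625, 636 and 604 at day 7, 349, 320.5 and 709 at day 14, and 407, 606, 709 and 338 at day 28. All 3 day 1 arrays were below all 13 others, and all 3 day 7 arrays were above every uninjured one. The arrays also differed in brightness, which the plot of signal against brightness shows. Within day 14, replicate 3, with a 75th percentile of 1432, gave 709 units, while replicate 2, with 718, gave 320.5 and replicate 1, with 518, gave 349, so signal did not follow brightness across all 3.

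**Figure D1:**
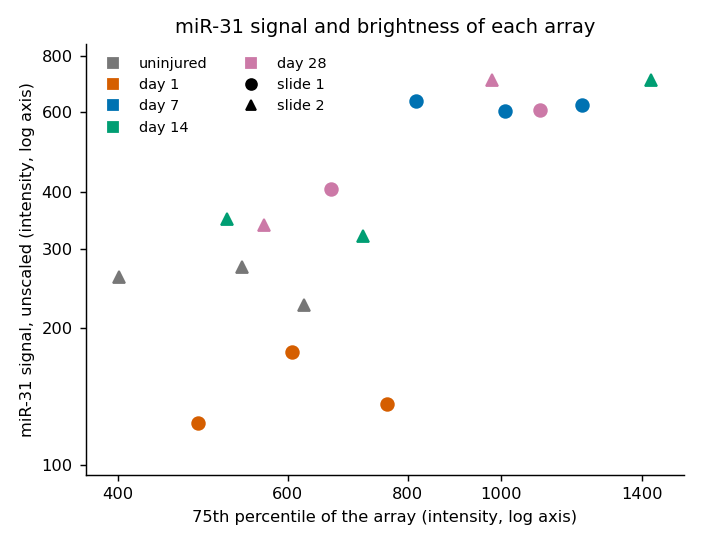
Unscaled miR-31 signal (vertical, intensity units, log axis) against the 75th percentile of each array (horizontal, intensity units, log axis), 1 point per array, coloured by group, with circles for slide 1 and triangles for slide 2. The 3 day 1 arrays, at 123 to 177 units, lie below the uninjured arrays of 225 to 273 units although their 75th percentiles of 484 to 761 overlap those of the uninjured group, 401 to 624.1.

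After scaling, miR-31 was lowest at day 1 and the arrays of the other 4 groups overlapped. The scaled log2 levels were -0.62, -0.98 and -1.47 in uninjured arteries and -1.77, -2.48 and -1.97 at day 1. At day 7 they were -0.96, -0.36 and -0.74, at day 14 -0.57, -1.16 and -1.01, and at day 28 -0.71, -0.86, -0.46 and -0.75. The day 1 arrays did not overlap those of any other group, and the uninjured, day 7, day 14 and day 28 arrays all overlapped each other. The group means were -1.02 ± 0.43 in uninjured arteries, -2.08 ± 0.37 on day 1, -0.69 ± 0.30 on day 7, -0.92 ± 0.31 on day 14 and -0.69 ± 0.17 for day 28 (SD, n = 3, 3, 3, 3 and 4). The uninjured arrays alone spanned from -1.47 to -0.62, a span of more than any difference between the later days and uninjured arteries.

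**Figure D2:**
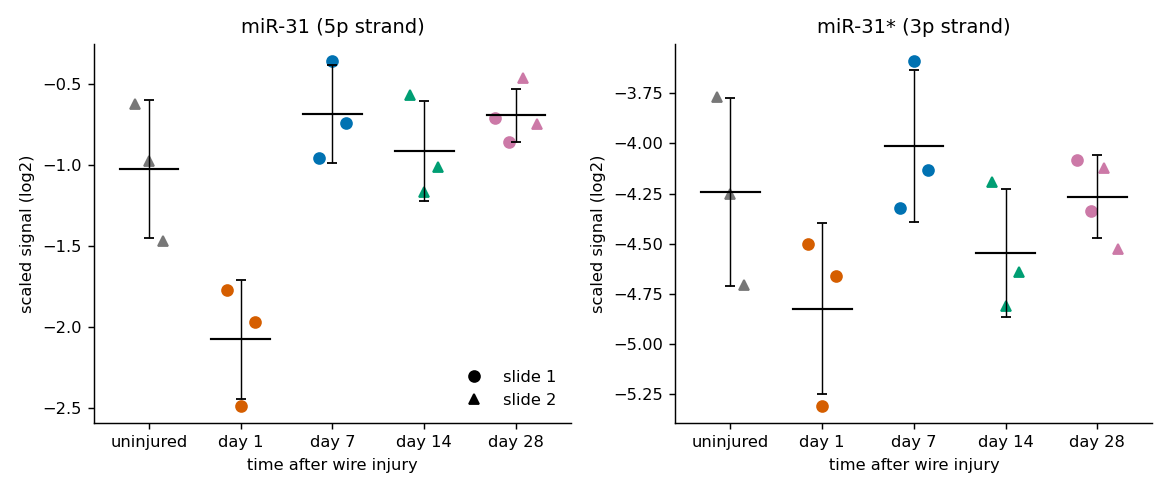
Scaled log2 signal (vertical) of miR-31 (left) and miR-31* (right) in each artery by group in order of time (horizontal), with the group mean as a bar and 1 SD as the error bar, circles for slide 1 and triangles for slide 2. The 3 day 1 arrays of miR-31 lie between -2.48 and -1.77, below all other arrays, whereas for miR-31* the day 1 and uninjured arrays overlap.

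At day 1 miR-31 was 2.07-fold lower than in uninjured arteries (log2 -1.05 ± 0.25 SE, n = 3 and 3, limma adjusted p = 0.00594). In that comparison limma called 32.4% of the 321 miRNAs tested, and 12.8% were lower. Its difference ranked at the 4.36th percentile of all tested miRNAs, whose median difference was 0.24. Day 1 and uninjured arrays lay on different slides, tied together only by the 4 day 28 arrays. With slide as a block the difference was -0.88 ± 0.40 (SE) with limma adjusted p = 0.234, so the call ended; that fit called 9.35% of miRNAs. Without scaling the difference was -0.81 (limma adjusted p = 0.17), and with the percentile over all probes, median scaling and quantile normalization it was -1.69, -1.71 and -1.65, each past the test. Relative to the median of all miRNAs, it stood between -1.57 and -1.24 under the 5 scalings tried (the percentile used, the percentile over all probes, the median, quantiles and none).

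The later days were not shown to differ from uninjured arteries. At day 7 miR-31 differed by 0.34 ± 0.25 (SE) from uninjured (95% interval -0.20 to 0.88, limma adjusted p = 0.302), where limma called 49.8% of miRNAs. At day 14, on the same slide as the uninjured arteries, the difference was 0.11 ± 0.25 (SE, interval -0.43 to 0.65, limma adjusted p = 0.825; 39.3% of miRNAs called). At day 28 it was 0.33 ± 0.23 (SE, interval -0.18 to 0.84, limma adjusted p = 0.348; 26.2% called). These intervals, from the fit without slide as a block, reach up to 0.88 and down to -0.43 on the log2 scale. Without scaling the day 7 difference was 1.30 and passed the test (limma adjusted p = 0.0114), but the median of all tested miRNAs was then 0.86 higher too. Relative to that median the day 7 difference of miR-31 was 0.27 to 0.44 under the 5 scalings.

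Against day 1 the later days were higher, and here slide can be held fixed. Day 7 and day 1 lay wholly on slide 1, and miR-31 was 2.62-fold higher at day 7 (log2 1.39 ± 0.25 SE, n = 3 and 3, limma adjusted p = 0.000694; 43.3% of miRNAs called, 18.7% higher). Fitted on slide 1 alone it was 1.39 ± 0.23 (SE, limma adjusted p = 0.00243). At day 28 miR-31 was 2.61-fold higher than at day 1 (log2 1.38 ± 0.23 SE, n = 4 and 3, limma adjusted p = 0.000791; 34% called, 17.1% higher), and within slide 1 the difference was 1.29 ± 0.26 (SE, limma adjusted p = 0.0121). At day 14 it was 2.24-fold higher than at day 1 (log2 1.16 ± 0.25 SE, limma adjusted p = 0.00226; 39.6% called, 17.4% higher), a comparison between slides whose call ended with slide as a block (log2 0.98 ± 0.40 SE, limma adjusted p = 0.123; 13.4% called in that fit). With slide as a block the day 7 and day 28 differences from day 1 remained called, in fits that called 43.9% and 20.2% of miRNAs. The 5 arrays of day 7 and day 28 on slide 1 averaged -0.73 ± 0.23, against -2.08 ± 0.37 on the 3 day 1 arrays (SD), and did not overlap them. The two-sided exact permutation test gave p = 0.0179, the smallest that 56 splits allow, and 0.0403 after adjustment over the 9 exact tests made. This split was added after the values were seen, so its p only describes the separation.

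The order of the group means from high to low was day 7, day 28, day 14, uninjured and day 1. Neighbours in that order differed by -0.01 ± 0.23 (day 28 minus day 7), 0.22 ± 0.23 (day 28 minus day 14), 0.11 ± 0.25 (day 14 minus uninjured) and -1.05 ± 0.25 (day 1 minus uninjured) on the log2 scale (SE). Only the last of these 4 steps passed limma's test. Day 14 minus day 7 was -0.23 ± 0.25 (SE, limma adjusted p = 0.666). In these comparisons of later days limma called 10.3% (day 14 minus day 7), 15.3% (day 28 minus day 14) and 33.6% (day 28 minus day 7) of miRNAs. The day 14 minus day 7 count of 33 was 0 to 61 under the alternatives and 1 to 49 with 1 array left out (1 without day 14 replicate 2, 5 without day 7 replicate 2). The day 28 minus day 14 count of 49 was 0 to 49 under the alternatives and 21 to 55 with 1 array left out. Over the 4 days together the moderated F test of limma gave miR-31 an adjusted p of 0.00124, rank 105 of 321, where 60.7% of miRNAs passed. All 13 injured arteries as a single group averaged -1.06 ± 0.64, against -1.02 ± 0.43 in the 3 uninjured ones (SD; exact permutation p = 0.927, two-sided). On slide 2, the 5 arrays of day 14 and day 28 averaged -0.79 ± 0.29, against -1.02 ± 0.43 in uninjured arteries (SD; exact permutation p = 0.411, adjusted 0.688).

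**Figure D3:**
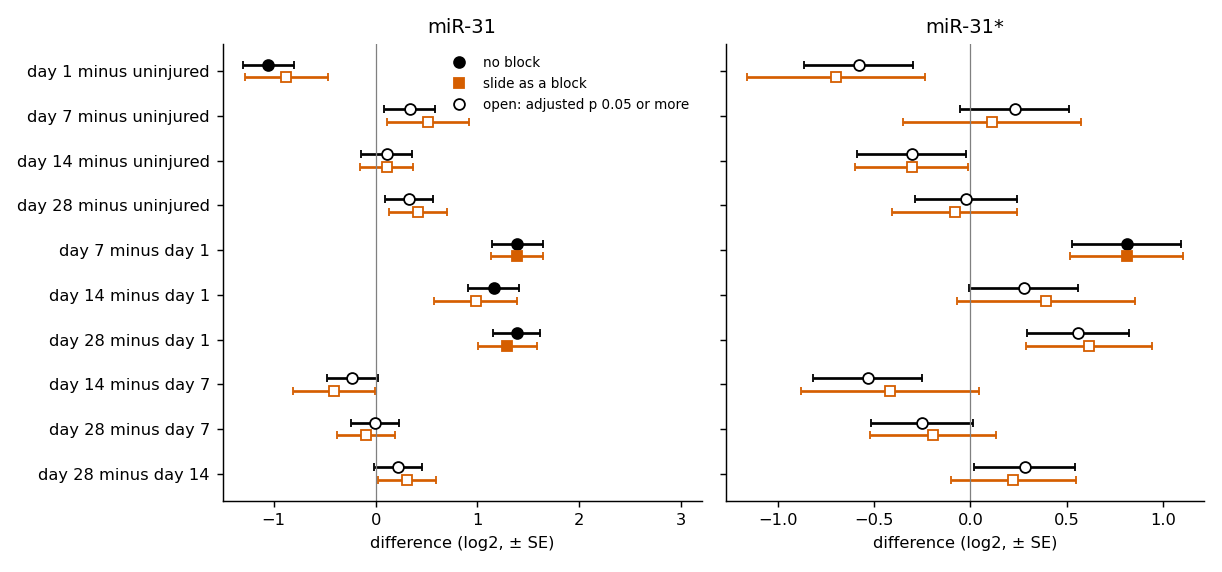
Differences of miR-31 (left) and miR-31* (right) on the log2 scale with their SE (horizontal) for the 10 pairs of groups (vertical), fitted without a block (black circles) and with slide as a block (orange squares). Symbols are filled where the adjusted p of limma was under 0.05: for miR-31 the day 7 and day 28 differences from day 1, 1.39 and 1.38, stay filled with the block, and that of day 1 from uninjured, -1.05, does not.

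The group means of the dimmer probe of miR-31 were -2.96 ± 0.43 in uninjured arteries, -3.96 ± 0.43 on day 1, -2.64 ± 0.33 on day 7, -2.88 ± 0.34 on day 14 and -2.63 ± 0.17 for day 28 (scaled log2, SD). It too was lowest at day 1 in all 3 arrays.

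For the star strand, 1 of the 10 pairs of groups passed the test. Unscaled, miR-31* gave 29.4, 28.3 and 24.0 intensity units in uninjured arteries, 26.8, 19.3 and 19.1 at day 1, 60.8, 67.7 and 57.6 at day 7, 28.4, 25.6 and 57.4 at day 14, and 39.3, 54.4, 56.2 and 24.6 at day 28. After scaling the means were -4.24 ± 0.47 in uninjured arteries, -4.82 ± 0.43 on day 1, -4.01 ± 0.38 on day 7, -4.55 ± 0.32 on day 14 and -4.27 ± 0.21 for day 28 (log2, SD). At day 1, levels of -4.50, -5.31 and -4.66 overlapped the uninjured ones of -3.77, -4.25 and -4.70, and the difference of -0.58 ± 0.28 (SE) did not pass (limma adjusted p = 0.136). With the percentile over all probes, median scaling or quantile normalization it passed, at -1.21, -1.23 and -1.17, and it passed without uninjured replicate 3 (-0.81, limma adjusted p = 0.0481). Day 7 minus day 1 passed at 0.81 ± 0.28 (SE, limma adjusted p = 0.0338), and no other pair of groups did with this scaling. In the day 7 minus day 1 comparison limma called 43.3% of the 321 miRNAs tested, 18.7% higher, and miR-31* ranked 124 by p. Without scaling day 7 minus uninjured passed too (1.19, limma adjusted p = 0.0194), as did day 28 minus day 1 with the percentile over all probes, the median and quantiles (1.13, 0.94 and 1.07). The day 7 minus day 1 call ended without day 1 replicate 2 (log2 0.57), without day 7 replicate 2 (0.60) or without day 7 replicate 3 (0.87, limma adjusted p = 0.055), and with normexp background the difference was 0.21 (limma adjusted p = 0.603). Over the 4 days the F test of limma gave an adjusted p of 0.13, rank 235 of 321, where 60.7% of miRNAs passed.

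The difference between the strands within an array does not change when an array is divided by a constant, and its spread between replicates was small. miR-31 exceeded miR-31* by 3.15, 3.27 and 3.23 on the log2 scale in uninjured arteries. The difference was 2.73, 2.82 and 2.69 at day 1, 3.36, 3.23 and 3.39 at day 7, 3.62, 3.64 and 3.63 at day 14, and 3.37, 3.48, 3.66 and 3.78 at day 28. Probes can differ in affinity, so the size of this difference is no strand ratio in the tissue, and only its change between groups was compared. That change can also depend on background left in dim signals. At day 1 the brighter miR-31* probe gave 19.1 to 26.8 units, and its dimmer probe, detected on 0 of these arrays, 6.53 to 8.14. With normexp background miR-31* at day 7 minus day 1 was 0.21 in place of 0.81. The part of background in the strand difference was not tested. Day 1 arrays were lowest and all 3 lay apart from every other array. On slide 1 the 5 later arrays averaged 3.37 ± 0.09, against 2.75 ± 0.07 on the 3 day 1 arrays (SD), 0.62 higher, and on slide 2 the 5 arrays of day 14 and day 28 averaged 3.67 ± 0.07, against 3.22 ± 0.06 on the 3 uninjured ones (SD), 0.45 higher. Each exact permutation test gave p = 0.0179, the smallest possible (two-sided, adjusted 0.0403 over 9 tests). The tests of the strand difference were added after the values were seen, so their p only describes the separation. After quantile normalization, which does not divide by a constant, the slide 2 difference was 0.38 with exact p = 0.161. Under the 12 alternatives run the slide 1 difference was 0.57 to 0.96 and the slide 2 difference 0.37 to 0.57. The slide moved with this measure as well: of the day 28 arteries, those on slide 1 stood at 3.37 and 3.48 and those on slide 2 at 3.66 and 3.78. Day 1 and uninjured arrays share no slide, and their difference in this measure was not tested. All 13 injured arteries averaged 3.34 ± 0.37, against 3.22 ± 0.06 in uninjured ones (SD; exact permutation p = 0.612).

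**Figure D4:**
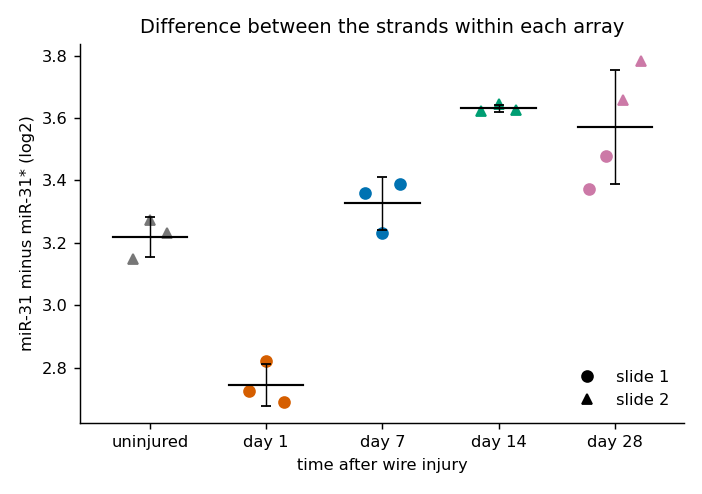
Difference between miR-31 and miR-31* on the log2 scale (vertical) in each artery by group in order of time (horizontal), with the mean as a bar and 1 SD as the error bar, circles for slide 1 and triangles for slide 2. The day 1 arrays, at 2.69 to 2.82, lie below all others, the day 14 arrays lie at 3.62 to 3.64, above the uninjured arrays of 3.15 to 3.27, and day 28 splits by slide.

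Across the 16 arrays the miRNAs most like miR-31 in scaled log2 signal, among the 218 others detected on all arrays, were miR-214 (Pearson r = 0.892), miR-152 (0.881), miR-199a-3p (0.839), miR-31* (0.831) and miR-199b* (0.83). The median r over the 218 was -0.0691. miR-214 and a copy of miR-199a are cut from 1 transcript known for its expression in mesenchymal cells. All 5 were lower at day 1 than in any other group in their means. After each array was set against its group mean, r was 0.956 for miR-31*, 0.748 for miR-214, 0.517 for miR-152, 0.575 for miR-199a-3p and 0.0662 for miR-199b*, so miR-199b* was like miR-31 mainly in the group means. The levels of miR-214 averaged 0.44 in uninjured arteries and -0.90 at day 1, and 1.61, 1.19 and 0.93 at days 7, 14 and 28. Least like miR-31 were miR-7a (r = -0.809), miR-218 (-0.793) and miR-139-5p (-0.695). With each array set against its group mean, r was -0.538, -0.595 and -0.0899 for these. Without scaling r was -0.251, -0.442 and 0.257. The arrays share 2 slides and 1 scaling, and the correlations are a description.

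**Figure D5:**
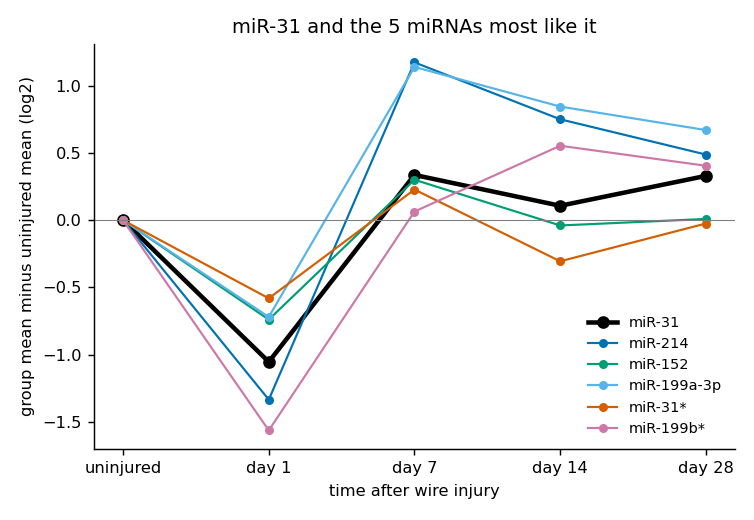
Group mean minus the uninjured mean on the log2 scale (vertical) by group in order of time (horizontal) for miR-31 (black) and the 5 miRNAs with the highest correlation with it. All 6 lines have their lowest point at day 1, at -1.05 for miR-31, and miR-214 and miR-199a-3p run above miR-31 from day 7 on.

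Other miRNAs with a known part in smooth muscle growth were followed on the same arrays, from 2 lists that leave miR-31 out. The list counts here and below were made with 1 scaling and without slide as a block. Day 1 and day 7 arrays shared no slide with the uninjured ones. With slide as a block limma called 9.35% of all miRNAs at day 1, against 32.4% without. Of the 7 growth-promoting ones listed, 3 were higher and 1 was lower at day 1 than in uninjured arteries, where 19.6% and 12.8% of all miRNAs were. miR-21, known to promote smooth muscle growth after vessel injury, was 4.99-fold higher at day 1 (log2 2.32 ± 0.22 SE, limma adjusted p = 4.99e-06), and miR-221, which represses the cell cycle inhibitor p27, was also higher (log2 1.26 ± 0.24 SE). miR-24 was lower (log2 -0.58 ± 0.14 SE). miR-146a, which damps inflammatory signalling and is also known to promote smooth muscle growth, was higher at day 1 too (log2 0.60 ± 0.17 SE). Its differences from uninjured arteries were larger at day 7 (log2 2.45 ± 0.17 SE), day 14 (2.51 ± 0.17) and day 28 (2.61 ± 0.16). At day 7 the counts were 4 higher and 2 lower (27.4% and 22.4% of all miRNAs), at day 14 3 and 2 (20.2% and 19%) and at day 28 4 and 0 (16.8% and 9.35%). The median difference of the list was 0.16, 0.73, 0.48 and 0.67 on days 1, 7, 14 and 28, beside 0.24, 0.0027, 0 and 0.04 over all tested miRNAs.

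Of the 9 growth-restraining miRNAs listed, 0 were higher and 2 were lower at day 1 (19.6% and 12.8% of all miRNAs), namely miR-195 (log2 -0.96 ± 0.18 SE), a relative of miR-16 that slows the cell cycle, and let-7d (log2 -0.72 ± 0.17 SE), of a family known to restrain proliferation. At day 7 2 were higher and 4 lower (27.4% and 22.4% of all miRNAs), at day 14 2 and 5 (20.2% and 19%), and at day 28 1 and 4 (16.8% and 9.35%). The median difference of the list was -0.48, -0.53, -1.38 and -0.45 on days 1, 7, 14 and 28, beside 0.24, 0.0027, 0 and 0.04 over all tested miRNAs. miR-143 and miR-145, which keep smooth muscle contractile, were lower at day 14 by log2 -2.26 ± 0.23 and -2.55 ± 0.27 (SE), and miR-34a, a transcriptional target of p53, was higher (log2 2.78 ± 0.20 SE), so the list did not move one way. miR-31 at day 14 differed from uninjured by 0.11 ± 0.25 (SE).

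Of the 8 leukocyte marker miRNAs listed, 7 were tested and 4 of these were higher at day 1, where 19.6% of all miRNAs were, with miR-147 detected on 0 arrays. The summed scaled signal of the list, with 6 to 7 members detected, was 26.7 to 29.3 on the day 1 arrays, against 3.00 to 3.11 in uninjured arteries, and the sum of the 2 endothelial miRNAs, of which 1 was detected, was 7.05 to 9.82 at day 1, against 9.70 to 10.3. The smooth muscle pair summed to 2.94 to 5.13 at day 1, against 3.53 to 6.37 in uninjured arteries. Of the 7 epithelial miRNAs, 2 to 4 were detected at day 1 and 1 in uninjured arteries, with sums of 0.157 to 0.187, against 0.137 to 0.180. No member could lie below the floor set for every probe, 0.0181 in scaled signal, so sums this small are mostly floor. An overlap of such sums says little about epithelial content. Day 28 replicate 2, on slide 1, had an epithelial sum of 2.07 with 7 detected, against 0.134 to 0.193 on the other arrays. Whether that array held other tissue was not tested. The sum of the 3 fat-associated miRNAs was 3.57 to 6.71 at day 1, against 8.37 to 11.5 in uninjured arteries. Of these 3, 1 was called lower by limma, miR-193b (log2 -1.26 ± 0.26 SE), where 12.8% of all miRNAs were. The other 2 were not called, miR-378 at -0.57 ± 0.38 and miR-365 in the other direction at 0.58 ± 0.22 (SE). The endothelial, smooth muscle, epithelial, striated muscle, neuronal and erythroid sums at day 1 overlapped those in uninjured arteries. Only the leukocyte and fat-associated sums lay apart. The part of these shifts in the lower miR-31 level at day 1 was not tested. At day 7, when miR-31 was higher than at day 1, the leukocyte sum was 15.7 to 20.5 at day 7, against 26.7 to 29.3 at day 1, and the endothelial sum was 12.3 to 15.4, against 7.05 to 9.82. The leukocyte members did not move one way. Of the 7 tested, 2 were called higher at day 7 than at day 1, miR-155 (log2 2.06 ± 0.31 SE) and miR-342-3p (1.44 ± 0.16). miR-223 was called lower (-0.93 ± 0.17), and 4 were not called. Of all miRNAs 18.7% were higher and 43.3% were called in either direction. The smooth muscle pair summed to 1.54 to 1.80 at day 7, against 2.94 to 5.13 at day 1. The fat-associated sum was 2.07 to 2.77 at day 7, against 3.57 to 6.71 at day 1, and the neuronal sum was 0.106 to 0.147, against 1.197 to 2.56. The striated muscle sum (3.86 to 7.25 at day 7, against 5.68 to 19.5 at day 1), the epithelial sum (0.135 to 0.165, against 0.157 to 0.187) and the erythroid sum (15.1 to 27.71, against 27.71 to 63.0) overlapped or touched. The part of these shifts in the higher miR-31 level at day 7 was not tested.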

How the data were processed

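Total RNA of 16 carotid arteries was measured on Agilent mouse miRNA arrays. Per the file headers, Feature Extraction 9.5.1.1 made the deposited intensity values, and the processed signal used here is background-subtracted. A second deposited table gives 610 mouse miRNAs as linear intensity. Both strands of miR-31 differ there from the scanner's summed gene signal by at most 0.00295%, and it was not centred, since its medians were 3.81, 5.36 and 7.93 for uninjured arteries, 13, 13.5 and 8.44 at day 1, 16.6, 11.5 and 11 for day 7, 7.67, 11.2 and 14.2 at day 14, and for day 28 9, 16.1, 11.6 and 7.62.

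Spots without an outlier mark were averaged per probe, and 1759 mouse probes were divided by each array's 75th percentile over the 395 detected on all arrays. A floor of 0.0181 was set (log2 -5.79), log2 was taken, and the brightest probe stood for a miRNA. A probe was well above background where at least 50% of its spots were. The 321 miRNAs so detected on every array of at least 1 group were tested; 219 were detected on all arrays. limma 3.58.1 in R 4.3.3 fitted 1 model over the 5 groups, with Benjamini-Hochberg adjustment over all 321 and calls at an adjusted p under 0.05. Exact permutation tests of single values were two-sided; the split within slide 1 and the tests of the strand difference were added after values were seen. The number of arrays limits the precision. The members, lists and tests were chosen with earlier results of these data known. Named were both strands, up to 3 members of each growth list per day with the smallest p, and the 5 most and 3 least correlated miRNAs. Also named were miR-146a at day 1, the leukocyte miRNAs called between day 7 and day 1, and the 3 fat-associated miRNAs. Replicate numbers did not pair the arrays: same-numbered arrays of different groups deviated with r from -0.448 to 0.558. The fit was tested on simulated data.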

Additional observations from a re-analysis of the deposited data

Results flagged for a closer look

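The later days exceeded day 1 for miR-31, by 1.39 (day 7), 1.16 (day 14) and 1.38 (day 28) on the log2 scale, each by a limma test of the difference between the days' effects, and day 14 lies on another slide than day 1. For miR-31* the day 7 effect exceeded that of day 1 by 0.81 by the same test. The difference between the strands was 0.62 higher in day 7 and day 28 arteries than in day 1 arteries on slide 1, by an exact permutation test added after the values were seen.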

How the results depend on the processing

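The day 7 and day 28 differences of miR-31 from day 1 passed the test under each of the 21 alternatives run, at 1.11 to 2.11 and 1.08 to 1.95 on the log2 scale. Day 1 minus uninjured was called in 17 of 20, at -1.69, -1.71 and -1.65 with the percentile over all probes, the median and quantiles. It was not called without scaling (-0.81), with slide as a fixed block (-0.88) or with the replicate block and slide (-0.55). Day 14 minus day 1 was not called with slide as a fixed block (0.98) or with the replicate block and slide (0.66). Day 7 minus uninjured was called without scaling (1.30). The replicate block alone changed no miR-31 call (day 1 minus uninjured -1.05, limma adjusted p = 0.0132), and 4 of 16 arrays correlated best with their own number.

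The differences whose sign turned had not passed the test as reported. For miR-31, day 28 minus day 7 was 0.080 (percentile over all probes), 0.0019 (mean over probes), 0.016 (outlier spots kept), 0.010 (replicate block) and 0.011 (dimmer probe). Day 14 minus uninjured was -0.14 (median scaling), -0.046 (total gene signal) and -0.021 (the authors' value table), day 14 and day 28 on slide 2 minus uninjured was -0.052 (median scaling), and injured minus uninjured was 0.59 (no scaling). For miR-31*, without scaling, day 14 and day 28 minus uninjured were 0.36 and 0.61, injured minus uninjured was 0.47 and the slide 2 value 0.40. With normexp, day 7 minus uninjured, day 14 minus day 1 and day 28 minus day 1 were -0.12, -0.15 and -0.013. Day 7 minus uninjured was -0.011 (total gene signal), day 28 minus uninjured 0.063 (replicate block) and 0.25 (with slide too), and day 14 minus day 1 -0.0033 (replicate block and slide).

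For miR-31*, scaling by the percentile over all probes, the median or quantiles gave -1.21, -1.23 and -1.17 for day 1 minus uninjured, 1.13, 0.94 and 1.07 for day 28 minus day 1, and F adjusted p of 0.0219, 0.00914 and 0.0283, each past the test, as were the F (0.0322) and day 7 minus uninjured (1.19) without scaling. Day 7 minus day 1 lost its call with no filter, with only the groups compared and with the replicate block and slide (0.81 each), a doubled floor (0.64), normexp (0.21), total gene signal and the authors' value table (both 0.58).

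Leaving out 1 array at a time gave miR-31 differences of -1.28 to -0.85 (day 1 minus uninjured), 1.19 to 1.54 (day 7 minus day 1), 0.96 to 1.31 (day 14 minus day 1) and 1.18 to 1.53 (day 28 minus day 1), called each time. It gave -0.14 to 0.16 for day 28 minus day 7, -0.12 to 0.31 for day 14 minus uninjured and -0.26 to 0.16 for injured minus uninjured. For miR-31* it gave -0.81 to -0.34 (day 1 minus uninjured), 0.57 to 0.97 (day 7 minus day 1), -0.25 to 0.21 (day 28 minus uninjured), -0.0023 to 0.46 (day 7 minus uninjured), -0.39 to 0.076 (injured minus uninjured) and -0.45 to 0.019 (slide 2). The miRNAs called at day 1 against uninjured numbered 104, against 36 without scaling, 41 with normexp, 30 with slide as a fixed block and 10 with the replicate block and slide. Of the 5 miRNAs most like miR-31, 2 stayed among the first 5 by Spearman's rho. Causes of these changes were not tested.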
